A study of Mus musculus with 2 samples.

Results

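Ribosomal protein genes encode the proteins that assemble with ribosomal RNA into the large and the small subunit of the cytoplasmic ribosome. Their messenger RNAs carry a short pyrimidine tract at the 5′ end (the TOP motif), through which their translation responds together to growth signals, and they are among the most abundant messages of a lymphocyte. In single-cell data their share of the transcriptome often differs between states of T cells. The genes described here were all rows of the deposited matrices whose symbol starts with Rpl or Rps followed by a digit, together with Rpsa, Rplp0, Rplp1 and Rplp2, leaving out symbols with -ps and the Rps6k kinases. This rule took 86 of 32285 rows, 52 with large subunit names and 34 with small subunit names, and all 86 were protein-coding genes in the annotation. A few of them are not constitutive ribosomal proteins: Rps19bp1 encodes a protein that binds Rps19 and was taken only by its name, and Rpl3l, Rpl7l1, Rpl10l, Rpl22l1, Rpl36al, Rpl39l, Rps27l and Rps27rt are paralogs or retrogenes of members.

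The libraries were made from γδ T cells of the lung, sorted from mice 5 to 7 weeks old that had not been infected, and there were 2 droplet libraries with 1 per group. In WT the mice were C57BL/6NCrl and the cells lacked the Vγ1 chain. In KO the cells were Vγ1+ and came from mice whose strain label is B6.Cg-Tcrgtm1lku(B6.Vg4-/-Vg6-/-), which by that label lack the Vγ4 and Vγ6 chains in all cells. The number of mice behind each library is not given, and strain, sort gate and library cannot be told apart in any comparison of KO with WT. The study made these libraries to ask how the programs of Vγ1 T cells without Vγ4 and Vγ6 T cells compare with those of WT T cells outside the Vγ1 subset. No test was run, because cells of 1 library are not replicates.

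The limits of the study's cell filter, applied here, left 2505 of 2520 WT and 6634 of 6688 KO barcodes. The paper reports fewer cells in each library, so the cells kept here are not the same set. Before filtering, 23 barcodes occurred in both libraries. The median depth was 3288 UMIs (unique molecular identifiers, each standing for 1 captured transcript) per WT cell and 3521 per KO cell. Each cell was thinned to 2000 UMIs drawn at random, which left 2125 WT and 5806 KO cells and took out 380 and 828 shallower cells. A cell was put in a group when a UMI of the named gene remained after thinning, so that a cell of a group without detection may still express the gene. Any of the T cell markers was read in 90.9% of the WT and 96.5% of the KO cells at full depth. Cells with at least 2 B cell or at least 2 myeloid markers made up 5.11% of WT and 2.67% of KO cells. Tcrg-V6 was the only variable gene read in 0 thinned KO cells, whereas Tcrg-V4, the gene of a chain that the KO label says is missing, was the only one read in 293. In WT these numbers were 473 cells for Tcrg-V6 and 258 for Tcrg-V4. A UMI stands for RNA and does not show whether a chain is made. Whether Tcrg-V4 transcripts are to be found in this strain is not known here, and the library is called KO by its label.

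Several results below turn on rows that share nearly all of their sequence. Rpl9 encodes a large subunit protein (chromosome 5, 65388364 to 65391444, minus strand of GRCm38), and Rpl9-ps6 is annotated as a protein-coding retrogene on chromosome 19 (32465865 to 32466578, minus strand). Their coding sequences are both 576 bases long and differed at 1 base, G266A counted from the first base of the start codon in Rpl9. The 41 coding bases around it, from 246 to 286, are shown because reads can be told apart only where they cover this base or the untranslated ends. The differing base is in capitals. In Rpl9-ps6 the stretch lies at chr19:32466266-32466306, and in Rpl9 it spans an exon junction within chr5:65389583-65390400.
Rpl9: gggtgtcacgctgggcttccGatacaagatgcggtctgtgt
Rpl9-ps6: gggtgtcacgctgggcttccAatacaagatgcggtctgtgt
The coding sequences of Rpl10 (chromosome X, 74270812 to 74273135, plus strand) and of the retrogene Rpl10-ps3 (chromosome 9, 50344201 to 50344968, minus strand) differed at 0 bases. Their first 41 coding bases, with the start codon in capitals, show that no read within them can be assigned to either by sequence.
Rpl10: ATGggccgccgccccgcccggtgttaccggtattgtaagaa
Rpl10-ps3: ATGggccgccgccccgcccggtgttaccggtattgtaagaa

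RefSeq promoters of GRCm38.p6, 250 bases before to 50 after an annotated start, were at hand for 66 of the 86 members (78 promoters). CCGGAA, the core that ETS family factors bind, was present on either strand in 37 of the 78, or 47.4%, against 14.9% of 32851 promoters of all genes. CTTTCC was present in 51.3% of member promoters and 26.6% of all, and TATAAA in 8.97% and 13.6%. The letters GGAA belong to CCGGAA and to the other strand of CTTTCC, so that these matches can overlap. A match describes letters and is no proof of binding. The upstream stretches of 3 members of high level that hold the motif, as TTCCGG on the printed strand, are shown as examples, with the motif in capitals. They lie at chr9:120127561-120127602 (plus strand), chr11:98026654-98026695 (plus strand) and chr12:28635984-28636025 (minus strand).
Rpsa: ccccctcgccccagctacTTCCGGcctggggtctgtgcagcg
Rpl19: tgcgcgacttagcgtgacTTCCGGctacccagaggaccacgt
Rps7: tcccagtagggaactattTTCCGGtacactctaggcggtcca

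Ribosomal protein transcripts took a large share of the transcriptome of these lung γδ T cells in both libraries. They made up 18.98% of the thinned UMIs of WT cells (95% interval 18.94 to 19.02) and 20.67% of those of KO cells (20.65 to 20.69), and 18.6% and 20.3% at full depth before thinning. Intervals here are exact binomial intervals and cover counting error only. Single cells varied far more than these intervals, with the 5th and the 95th percentile at 11.1% and 29.7% in WT and at 12.8% and 29.5% in KO. The distributions of the libraries therefore overlapped over most of their range.

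The highest member was Rps24, a small subunit protein gene (chromosome 14, 24487125 to 24496959), with 6909 UMIs per 1000000 UMIs (CPM) in WT and 8358 in KO. Rpl13, a large subunit gene (chromosome 8, 123102350 to 123105244), followed with 5580 and 6351 CPM. Rpsa, which encodes the small subunit protein also known as the laminin receptor, stood at 5402 and 5353 CPM. UMIs count molecules and are not divided by transcript length, but how completely each message is captured and assigned differs between genes, so that these are orders of counts. In the WT library the 10 highest members, among them Rplp0, Rpl19, Rps16, Rps7 and Rplp1, held 25.1% of the member UMIs. In KO the 10 highest held 27.0% and included Rps20 and Rps15a. In WT 70 members reached 1000 CPM, and 65 did so in KO. The stalk proteins, which recruit elongation factors to the large subunit, were at 4769 (Rplp0), 4002 (Rplp1), 2548 (Rplp2) and 1462 CPM (Rpl12) in WT. Rpl5 and Rpl11, which join 5S ribosomal RNA and also bind Mdm2, were at 1089 and 2311 CPM in WT and at 1113 and 2891 CPM in KO. Rps27a, made as a fusion with ubiquitin, was at 3378 CPM in WT and 3136 in KO.

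The tissue-restricted paralogs were close to silent. Rpl10l, a paralog of Rpl10 known from testis, had 0 UMIs in both libraries at full depth. Rpl3l, known from striated muscle, had 3 UMIs in WT and 1 in KO, against 1508 and 1698 CPM for Rpl3. Rpl39l had 12 and 8 UMIs, against 1740 and 2013 CPM for Rpl39. The paralogs that lymphocytes use were read at lower levels than their partners. Rpl22l1 reached 428 CPM in WT and 545 in KO beside 1152 and 1479 CPM for Rpl22, and Rpl36al reached 504 and 636 CPM beside 726 and 980 CPM for Rpl36a. Rpl7l1 (93.2 and 77.1 CPM) stood far below Rpl7 (1560 and 1667 CPM), and Rps27l, a p53 target (112 and 123 CPM), stood far below Rps27 (2585 and 2540 CPM). Rps27rt shared 90.8% of its 60-base windows with Rps27 and was read at 38.1 and 33.8 CPM, so its count cannot be separated from misassigned Rps27 reads.

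Among WT cells the ribosomal protein share was lower in cells with Tcrg-V6 than in cells with Tcrg-V4. Cells in which Tcrg-V6 was the only variable gene read (473 cells) had a share of 16.28% (16.21 to 16.36), and cells with Tcrg-V4 alone (258 cells) had 20.15% (20.04 to 20.26). The difference was −3.87 percentage points (95% interval −4.001 to −3.736). The medians over cells were 16% and 19.45%, and the 95th percentile of Tcrg-V6 cells, 23.6%, lay close to the upper quartile of Tcrg-V4 cells, 23.5%. The order held in each band of sequencing depth, at −2.53 points among cells of 2000 to 3000 UMIs, −4.09 from 3000 to 4500 and −5.59 above 4500. It also held within both detection states of Tmem176b, a gene of γδ T cells of the interleukin-17 type. Tcrg-V6 cells had 16.1% with and 17.2% without Tmem176b, and Tcrg-V4 cells had 19.3% and 20.6%. Ly6c2 was read in 11 of the Tcrg-V6 cells and in 49 of the Tcrg-V4 cells. With Ly6c2 the shares were 22.5% (Tcrg-V6) and 26.1% (Tcrg-V4). Without it they were 16.1% of 462 cells and 18.8% of 209 cells. The order thus held in both states of Ly6c2, but the gap was smaller than over all cells.

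The other Tcrg-V groups of WT lay between these values or were small. Cells with Tcrg-V1 alone, which the gate should have left out, numbered 56 and had a share of 19.5%, beside 19.3% for Tcrg-V5 (37 cells) and 17.2% for Tcrg-V7 (23 cells). The 156 cells with several variable genes had 16.9%, and the 1116 cells with none had 20.1%. In KO the shares were closer together. Cells with Tcrg-V1 alone (1509 cells) had 20.1%, cells with Tcrg-V4 alone 19.96% and cells with Tcrg-V3 alone (72 cells) 21.2%. The lowest were the 21 cells with Tcrg-V7 alone, at 18.35%, and the 3624 cells with no variable gene had 21.1%. Cells in which no gene was read are a mixture, since detection within 2000 UMIs is incomplete.

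**Figure D1:**
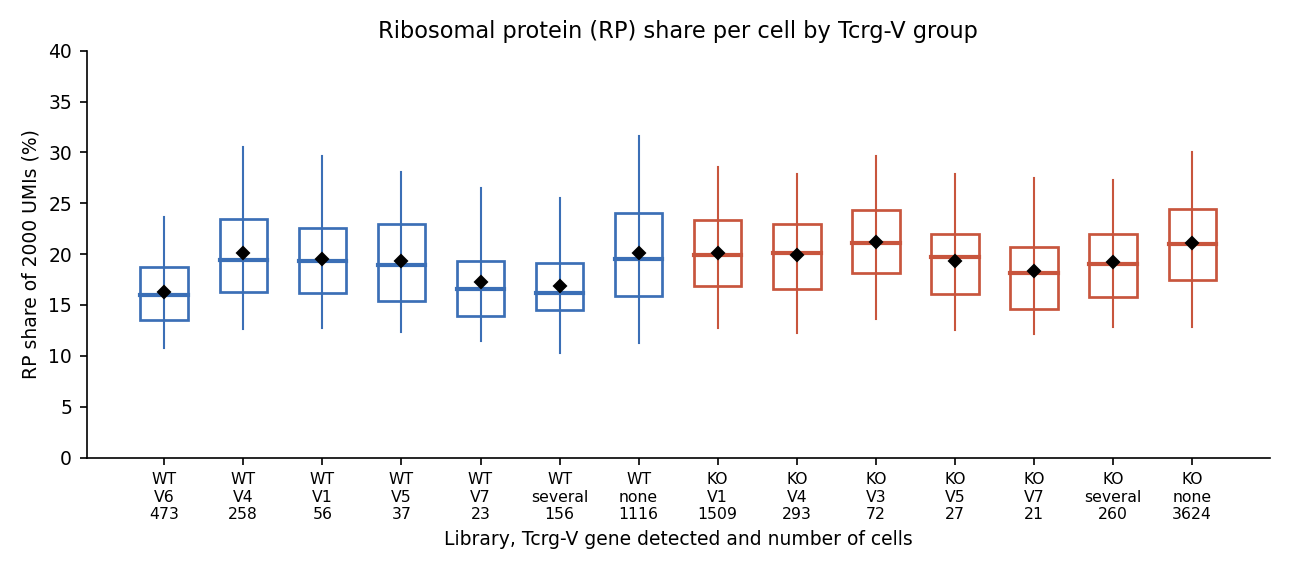
Share of ribosomal protein UMIs per thinned cell (y axis, percent of 2000 UMIs) by library and Tcrg-V gene detected (x axis, with the number of cells; WT blue, KO red). Boxes span the quartiles with the median as a line, whiskers run from the 5th to the 95th percentile, and diamonds mark the share over all UMIs of the group; WT Tcrg-V6 cells lie lowest, at 16.28%.

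Member by member, the lower share in Tcrg-V6 cells was spread over nearly the whole set. Of 81 members with at least 100 UMIs in the comparison, 78 were lower in Tcrg-V6 than in Tcrg-V4 cells, and the median log2 ratio of CPM was −0.30, against 0.00 over the 3417 genes compared. At a log2 ratio of at least 0.5 lower, 2 of 81 members compared were called, against 13.4% of all genes (16% of all genes were that much higher, and 0 members). These were Rps27 (2042 against 2983 CPM, −0.55, interval −0.64 to −0.45) and Rps18 (1219 against 1742 CPM, −0.52, −0.64 to −0.39), both small subunit genes. Most members were thus lower by small steps. The subunits were alike, with medians of −0.28 for large and −0.32 for small subunit genes. Rpl7l1 was the member that stood apart from this shift, at 105 CPM in Tcrg-V6 and 89.1 CPM in Tcrg-V4 cells (0.23, −0.29 to 0.77), on 99 and 46 UMIs and with an interval that holds 0.

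Cells with Ly6c2 had a higher ribosomal protein share than cells without it in both libraries. Ly6c2 encodes the surface protein Ly-6C2 of memory-like T cells. In WT the 366 cells with a Ly6c2 UMI had a share of 24.18% and the 1759 cells without one 17.90%, a difference of 6.28 points (6.17 to 6.38). The KO difference was smaller, 2.77 points (2.72 to 2.83), with 22.84% of 1273 cells against 20.06% of 4533 cells. Medians over cells were 24.1% against 17.45% in WT and 22.75% against 19.95% in KO. In each depth band the sign was the same, at 4.13, 7.42 and 5.80 points in WT and 1.08, 3.75 and 2.72 points in KO from the shallowest to the deepest. At full depth the WT cells with Ly6c2 had a median of 1006 ribosomal protein UMIs and 3074 others, against 592 and 2817 in cells without it. KO cells with Ly6c2 had 848 ribosomal protein and 2737 other UMIs, against 760 and 3035.

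The same order was read within single Tcrg-V groups. Among WT cells with Tcrg-V4 alone, the 49 cells with Ly6c2 had a share of 26.1% and the 209 without it 18.8%. Among KO cells with Tcrg-V1 alone, 270 cells with Ly6c2 had 21.9% and 1239 without it 19.7%. KO cells with Tcrg-V4 alone had 21.5% and 19.6%. Other features moved with Ly6c2 in WT. The 8 myeloid markers summed to 1030 CPM in cells with Ly6c2 (2 of the 8 at 0) and to 414 CPM in cells without (1 at 0). The 4 T cell markers summed to 2318 and 2929 CPM, and 8.20% against 4.43% of the cells had at least 2 B cell or 2 myeloid markers. Without such cells the WT difference was 6.74 points, at least as large as with them. In KO the myeloid markers summed to 238 and 195 CPM. The 6 immediate early and heat shock genes Fos, Jun, Junb, Hspa1a, Hspa1b and Dnajb1, which tissue handling is known to raise, summed to 3169 CPM with Ly6c2 and 5439 CPM without in WT, and to 3489 and 4073 CPM in KO. Among WT cells at or below the median of these stress UMIs the difference was 6.62 points, and among cells above it 5.45.

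In WT 19 of 82 members compared were at least 0.5 higher (log2) with Ly6c2, against 8.35% of all 3295 genes, and 0 were that much lower, against 15.7% of all genes. The median over 83 members with at least 100 UMIs was 0.42, beside −0.08 over all genes compared, and 80 of the 83 lay above 0. The largest ratios were those of Rpl37 (2340 against 1478 CPM, 0.66, 0.58 to 0.74), Rps27rt (54.6 against 34.7 CPM, 0.66, 0.10 to 1.18) and Rps28 (1780 against 1153 CPM, 0.63, 0.54 to 0.72). Rps29, which like Rps28 is one of the smallest small subunit proteins, was at 0.61. In KO 0 of 81 members reached 0.5 either way, against 2.51% of 3146 genes higher and 5.66% lower. The KO median was 0.18, with Rpl38 the highest (1368 against 1087 CPM, 0.33, 0.27 to 0.39) and Rps27l the lowest (109 against 127 CPM, −0.22, −0.41 to −0.03). Rps27rt (40.1 against 32.1 CPM, 0.32, −0.02 to 0.65) and Rps21 (2284 against 1860 CPM, 0.30, 0.25 to 0.34) were also among the 3 highest, and Rpl7l1 (71.5 against 78.6 CPM, −0.14, −0.38 to 0.10) was among the 3 lowest.

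Cd8b1, which encodes the β chain of the CD8 coreceptor, marked a second group with a high share. WT cells with a Cd8b1 UMI were few, 53 cells with a share of 23.83%, against 18.86% of the 2072 others (4.97 points, 4.71 to 5.23). KO held 640 such cells with 22.93%, against 20.39% of 5166 cells (2.54 points, 2.46 to 2.61). In the depth bands the differences were 5.63, 5.39 and 3.64 points in WT and 2.83, 2.75 and 1.97 points in KO. The 4 αβ T cell genes Trac, Trbc1, Trbc2 and Cd4 summed to 858 CPM with and 835 CPM without Cd8b1 in WT. In KO they summed to 1211 and 1108 CPM. Trac was read at 37.7 CPM with and 30.4 CPM without Cd8b1 in WT, and at 32.8 and 30.3 CPM in KO. Trbc1 was at 208 and 166 CPM in WT and at 296 and 239 CPM in KO. Trbc2 was lower with Cd8b1 in WT, at 613 and 637 CPM, but higher in KO, at 881 and 836 CPM. Cd4 was lower with Cd8b1 in both libraries. In WT the stress genes summed to 3255 CPM with and 5094 CPM without Cd8b1, and the 8 myeloid markers to 745 (4 of the 8 at 0) and 514 CPM (1 at 0). Their part in the WT difference was not tested beyond the split by stress UMIs, which gave 4.66 points at or below the median and 5.25 above it. The γδ gene Trdc was read at 274 and 198 CPM in WT and at 170 and 189 CPM in KO. The other T cell markers went opposite to Trdc in both libraries. In WT Cd3e was at 840 against 982 CPM, Cd3d at 689 against 705 CPM and Cd3g at 774 against 945 CPM. In KO they were at 991 against 945, 969 against 836 and 959 against 910 CPM. Cells with both Ly6c2 and Cd8b1 had the highest shares seen, 26.4% of 13 WT cells and 24.7% of 102 KO cells. Either marker alone also went with a higher share than neither. In KO the share was 22.7% with Ly6c2 but no Cd8b1, 22.6% with Cd8b1 but no Ly6c2, and 19.7% with neither. In WT these values were 24.1%, 23.0% and 17.8%.

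By member, 6 of 81 were at least 0.5 higher with Cd8b1 in WT, against 21.9% of 3518 genes, and 1 was lower, against 23.1%. The small group widens all ratios, and these shares of members were below those of all genes. The median over 83 members was 0.35, against 0.02 over all genes compared. The 6 were Rpl31 (689 against 424 CPM, 0.70, 0.34 to 1.04), Rps15a (0.62), Rps28 (0.57), Rps20 (0.55), Rpl35 (0.53) and Rpl35a (0.53). The lower one was Rpl7l1, on 7 UMIs with Cd8b1 (−0.51, −1.83 to 0.55). Rpl14, a large subunit gene, was the 1 member with at least 100 UMIs that lay 0.5 or more from the member median with its whole interval on one side of it, at 1019 against 1160 CPM on 108 UMIs with Cd8b1 (−0.19, −0.48 to 0.09). In KO 0 of 81 members were called, against 3.3% of 3214 genes higher and 7.75% lower, with a median of 0.16. Rps20 was the highest (6209 against 4997 CPM, 0.31, 0.28 to 0.35). Rps12, a small subunit gene, went the other way, with 1688 against 2019 CPM (−0.26, −0.32 to −0.19). It was singled out after its values were seen, as the constitutive ribosomal protein gene with the largest contrary ratio in KO.

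Ccr9, the receptor for the gut and thymus chemokine Ccl25, went with differences whose sign varied between groups of cells. In WT the share was 18.77% in 139 cells with Ccr9 and 19.00% in 1986 without (−0.23 points, −0.38 to −0.07). When detection was read within 1000 UMIs outside the ribosomal protein genes the sign turned (0.09 points), so no direction can be given for WT. In KO the 621 cells with Ccr9 had 19.87% and the 5185 others 20.77%, a difference of −0.90 points (−0.97 to −0.82). The KO depth bands gave 0.14, −1.75 and −0.60 points, so the shallowest band did not share the direction. Among WT cells with Tcrg-V4 alone, 29 cells with Ccr9 had a share of 17.7% and 229 without it 20.5% (−2.72 points, −3.05 to −2.38). Among KO cells with Tcrg-V1 alone the difference was 0.19 points (0.04 to 0.35), and among those with Tcrg-V4 alone −0.45 points (−0.76 to −0.14). Of the members, 0 higher and 1 lower (Rps27l, at 22 UMIs with Ccr9) of 81 passed 0.5 in WT, against 14.2% and 8.35% of 3507 genes. In KO 0 of 81 did, against 1.57% and 1.19% of 3192 genes. The medians were −0.03 and −0.06. In KO Rpl35 (0.08) was among the 3 highest members, and Rps27rt (−0.29) and Rplp2 (−0.16) were among the 3 lowest. In WT the 3 highest and the 3 lowest were Rps27rt (0.32), Rps18 (0.16) and Rpl12 (0.12), and Rps27l (−0.52), Rps25 (−0.26) and Rpl31 (−0.26).

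Cells with Tmem176b had a lower ribosomal protein share in both libraries. Tmem176b encodes a membrane protein that is high in T cells of the interleukin-17 type. In WT the share was 17.11% in 914 cells with and 20.39% in 1211 cells without it (−3.28 points, −3.36 to −3.21). In KO it was 18.58% in 1100 and 21.16% in 4706 cells (−2.58 points, −2.63 to −2.52). The differences were −1.47, −3.98 and −4.09 points in the depth bands of WT and −1.47, −2.96 and −2.75 points in those of KO. Among KO cells with Tcrg-V1 alone the share was 18.4% with and 20.7% without Tmem176b, and among those with Tcrg-V4 alone 18.05% and 20.6%. In WT the difference was smaller within single Tcrg-V groups than over all cells, at −1.25 points (−1.49 to −1.02) among cells with Tcrg-V4 alone and −1.18 points (−1.37 to −0.99) among cells with Tcrg-V6 alone. Markers of other cell types also moved with Tmem176b in WT. The 8 myeloid markers summed to 377 CPM with it (1 of the 8 at 0) and 628 CPM without (2 at 0), the 7 B cell markers to 51.4 (3 at 0) and 166 CPM, the 3 epithelial markers to 14.8 and 553 CPM, and the 4 T cell markers to 3230 and 2517 CPM. Most epithelial UMIs of WT were those of Scgb1a1 (3248 at full depth), which was read in 0.319% of cells. The epithelial sums therefore rest on few cells. Cells with at least 2 B cell or 2 myeloid markers were 3.39% and 6.36% in WT, and without them the WT difference was −3.44 points. In KO the myeloid and T cell sums went the other way, at 246 against 194 CPM and 2835 against 2919 CPM with and without Tmem176b. The KO sums of B cell markers (87.3 against 98.2 CPM) and epithelial markers (14.1 against 24.2 CPM) kept the WT direction. Stress genes summed to 6274 CPM with and 4122 CPM without Tmem176b in WT, and to 5729 and 3529 CPM in KO. The differences at or below and above the median of stress UMIs were −3.81 and −2.63 points in WT and −2.06 and −3.06 points in KO.

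In neither library did a ribosomal protein proper pass 0.5 with Tmem176b: 0 of 81 members compared were called either way, against 13.8% and 12.6% of 3328 genes higher and lower in WT and 14% and 12.8% of 3343 genes in KO. The medians were −0.25 and −0.17, beside −0.02 and −0.05 over all genes compared, and 78 of 83 members in WT and 75 of 83 in KO lay below 0. The lowest ratio fell on Rps3a1 and the next on Rps15a, both small subunit genes, in both libraries. Rps3a1 was at 3088 against 4343 CPM in WT (−0.49, −0.54 to −0.45) and at 3698 against 4908 CPM in KO (−0.41, −0.44 to −0.37). Rps15a was at −0.49 in WT and −0.38 in KO. After these the libraries differed, with the large subunit gene Rpl37 (−0.47) in WT and Rps20 (−0.37) in KO. Rps12 again differed from the rest, at 2284 against 1912 CPM in KO (0.26, 0.21 to 0.30) and 1948 against 1920 CPM in WT (0.02, −0.04 to 0.08).

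**Figure D2:**
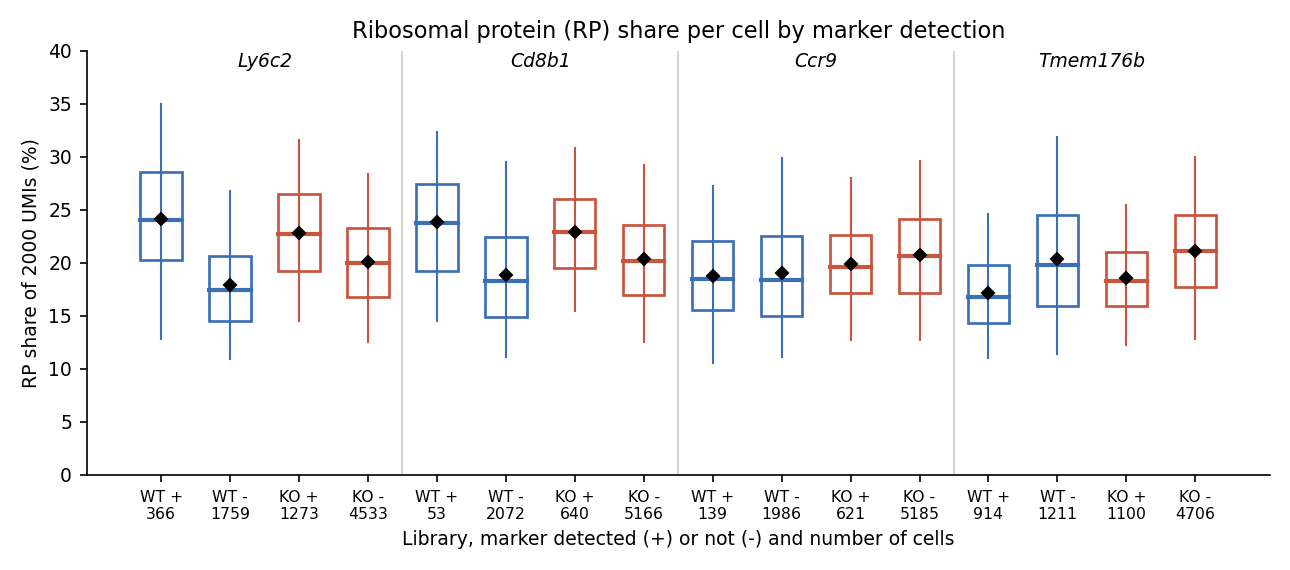
Share of ribosomal protein UMIs per thinned cell (y axis, percent of 2000 UMIs) in cells with (+) and without (-) a UMI of Ly6c2, Cd8b1, Ccr9 or Tmem176b (x axis, with the number of cells; WT blue, KO red). Boxes, whiskers and diamonds give quartiles, 5th to 95th percentiles and the share over all UMIs; the share is higher with Ly6c2 and Cd8b1 and lower with Tmem176b in both libraries.

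The ratios of single members were most alike in the libraries for Tmem176b, less so for Ly6c2 and Cd8b1, and least for Ccr9. Across 83 members the log2 ratios with Tmem176b in WT and KO had a Pearson r of 0.87 and a Spearman rho of 0.76, those with Ly6c2 0.64 and 0.56, those with Cd8b1 0.65 and 0.49, and those with Ccr9 0.09 and 0.30. These describe genes of the same 2 libraries, which share the division by all UMIs. For Ly6c2 77 members lay above 0 in both libraries, for Cd8b1 76 did, and for Tmem176b 74 lay below 0 in both.

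In the comparisons within a library, the genes that left the common shift by 0.5 or more were mostly those that are not constitutive ribosomal proteins. Rpl14 with Cd8b1 in WT was the exception. Rps19bp1, Rpl7l1 and Rps27l were read at low levels, and some of their intervals hold 0. Rps19bp1 (chromosome 15, 80260615 to 80264315, minus strand) was at 55.8 against 31.0 CPM with and without Tmem176b in WT (0.85, 0.405 to 1.299) and at 50.5 against 29.3 CPM in KO (0.78, 0.45 to 1.11), where the member medians were below 0. With Ly6c2 in WT it was at 24.6 against 45.2 CPM (−0.88, −1.67 to −0.17), but in KO at 32.99 against 33.42 CPM (−0.02, −0.39 to 0.33). With Cd8b1 in KO it was at 21.1 against 34.8 CPM (−0.72, −1.35 to −0.16). Its own 351 WT and 822 KO UMIs at full depth limit these values. It was read in under 10% of cells of each group, so that it stayed outside the counts of members called. Rpl7l1 was at 105 against 84.2 CPM with Tmem176b in WT (0.32, 0.03 to 0.61) and at 90.5 against 73.9 CPM in KO (0.29, 0.06 to 0.52). With Ly6c2 in WT it was at 79.2 against 96.1 CPM (−0.28, −0.71 to 0.13). Rps27l was at 94.5 against 127 CPM with Cd8b1 in KO (−0.42, −0.70 to −0.15) and at 104 against 113 CPM with Ly6c2 in WT (−0.12, −0.50 to 0.23). The paralogs Rpl22 and Rpl22l1 were at −0.15 and −0.17 with Tmem176b in WT, but at −0.03 (−0.08 to 0.03) and −0.32 (−0.42 to −0.22) in KO. Rpl36al stayed near its level in cells without the marker (0.03 with Ly6c2 in WT), whereas Rpl36a was at 0.59.

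**Figure D3:**
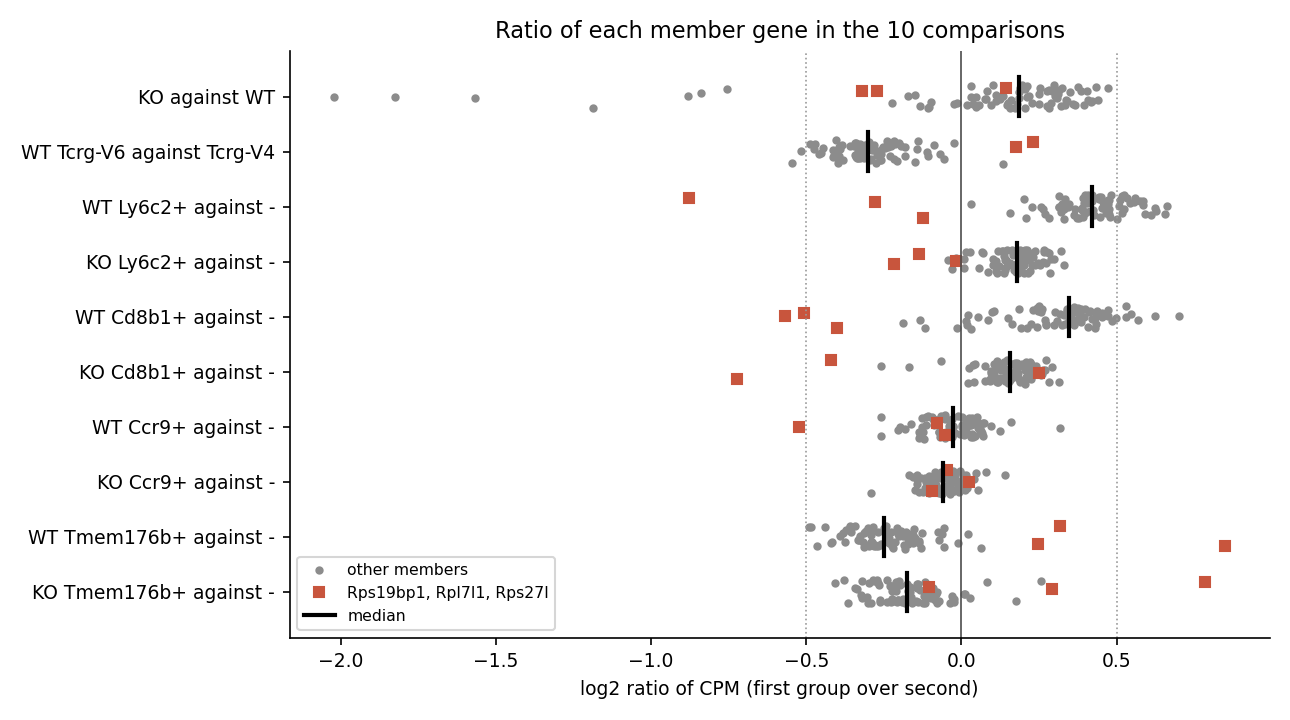
Log2 ratio of CPM (x axis) of each member with at least 100 UMIs in the 10 comparisons (y axis); points are genes, red squares Rps19bp1, Rpl7l1 and Rps27l, bars the median and dotted lines 0.5 either way. Most members move together by less than 0.5, and for KO against WT 7 members lie apart, down to −2.02.

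Other genes of translation were set beside the members. A list of 18 further translation genes held elongation and initiation factors, Tpt1, Pabpc1 and other messages known for a TOP motif, and also Fau, which encodes a ribosomal protein as a fusion and is missed by the naming rule. All 18 could be compared, and their medians had the sign of the member medians in the Tcrg-V6, Ly6c2, Cd8b1 and Tmem176b comparisons. With Ly6c2 in WT 16 of 18 were above 0 (median 0.27), with Tmem176b in WT 14 of 18 were below 0 (median −0.18), and with Tmem176b in KO 14 of 18 (median −0.10). In Tcrg-V6 against Tcrg-V4 cells 14 of 18 were below 0 (median −0.17), and 1 gene was at least 0.5 lower, the noncoding host gene Gas5 (259 against 426 CPM, −0.72, −0.99 to −0.45). Fau had a ratio of 0.34 with Ly6c2 in WT (6208 against 4920 CPM, 0.29 to 0.38). The 20 ribosome biogenesis genes, which serve the making of new ribosomes in the nucleolus, gave medians of 0.02 with Ly6c2 and 0.05 with Tmem176b in WT, over the 10 that could be compared. The 78 mitochondrial ribosomal protein genes (Mrpl and Mrps), of which 33 could be compared there, gave −0.01 and 0.09. In these WT comparisons the medians of both lists were thus nearer to 0 than those of the members. The contrast was weaker elsewhere. Biogenesis genes had a median of 0.09 with Ly6c2 in KO (8 of 10 above 0), beside 0.18 for the members. With Cd8b1 they were at 0.13 in WT (9 of 11 above 0), beside 0.35, but at −0.01 in KO, beside 0.16. For KO against WT the mitochondrial genes were at 0.13, beside 0.19 for the members.

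KO cells had a ribosomal protein share 1.69 points above that of WT cells (1.65 to 1.73), but the direction was not the same in every group of cells. With Ly6c2 detected the KO share minus the WT share was −1.34 points (−1.45 to −1.23), and with Cd8b1 −0.90 points (−1.17 to −0.63). Single members did not share a direction there. Their median log2 ratio was −0.01 with Ly6c2 (41 members above 0 and 42 below) and 0.02 with Cd8b1 (48 above and 33 below). The shares include 7 members, described next, that were lower in KO in each group. Differences without these members were not computed within groups. With Ccr9 it was 1.10 points above (0.94 to 1.26), with Tmem176b 1.47 points above (1.40 to 1.55), and without any of the 4 markers 1.59 points above (1.51 to 1.66). Cells with Tcrg-V4 alone were nearly level, at 19.96% in KO and 20.15% in WT. This near equality also includes the 7 members, and the median log2 ratio over members was 0.04 there (45 above 0 and 35 below). The KO library also had fewer stress UMIs (3945 against 5048 CPM). Whether these play a part in the share was not tested.

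The largest differences between the libraries were carried by 7 members. At a log2 ratio of at least 0.5, 7 of 81 members were lower in KO, against 9.76% of all 3259 genes, and 0 were higher, against 7.09% of all genes. The number is near that background, and what set the 7 apart was their size. The other members formed a narrow group around the median of 0.18, with Rpl35 (0.47), Rps26 (0.44) and Rpl36a (0.43) at its upper end and quartiles over all members at 0.03 and 0.30. Rpl9 had 657 CPM in KO and 2668 in WT (−2.02, interval −2.06 to −1.98). Rpl10 had 616 and 2183 CPM (−1.83, −1.87 to −1.78), and Rpl17 606 and 1797 CPM (−1.57, −1.61 to −1.52). Rpl35a was at 872 and 1984 CPM (−1.19, −1.23 to −1.14). Rpl41, the shortest ribosomal protein, was at 741 and 1366 CPM (−0.88, −0.93 to −0.83). Rpl21 was at 1794 and 3213 CPM (−0.84, −0.87 to −0.81), and Rps13 at 1625 and 2741 CPM (−0.75, −0.79 to −0.72). Rps19bp1 was also 0.51 below the member median (33.3 and 41.6 CPM, −0.32, −0.58 to −0.06). The genes lie apart on chromosomes 5 (Rpl9 and Rpl21), X (Rpl10), 18 (Rpl17), 16 (Rpl35a), 10 (Rpl41) and 7 (Rps13).

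The 7 genes were also read within groups of cells. In 11 comparisons of KO with WT within 1 group of cells (by marker, by marker alone, without a marker, with Tcrg-V1 alone or Tcrg-V4 alone), all 7 were lower in each, with intervals below 0 in 11 of 11. Rpl9 ranged from −2.26 to −1.95 and Rps13 from −0.92 to −0.61. These comparisons re-split the cells of the same 2 libraries for genes chosen as lower in KO, so that they describe these libraries and are no replicates. Within the libraries the 7 genes moved with the other members: in the other 9 comparisons Rpl9 stayed between −0.06 and 0.08 of the member median, and Rpl10, the widest, between −0.19 and 0.21. The 7 genes made up 1.60% of all WT and 0.691% of all KO UMIs. Without them the KO share was 2.59 points above WT rather than 1.69. They also set the balance of subunits, since 6 of the 7 are large subunit genes. The ratio of large to small subunit UMIs was 1.11 in WT and 1.03 in KO with them, and 0.990 and 0.993 without them. These ratios count members only. They leave out Rpl9-ps6 and Gm10076, which share sequence with Rpl9 and Rpl41 and were higher in KO, as given below. The ratios with those rows added were not computed.

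**Figure D4:**
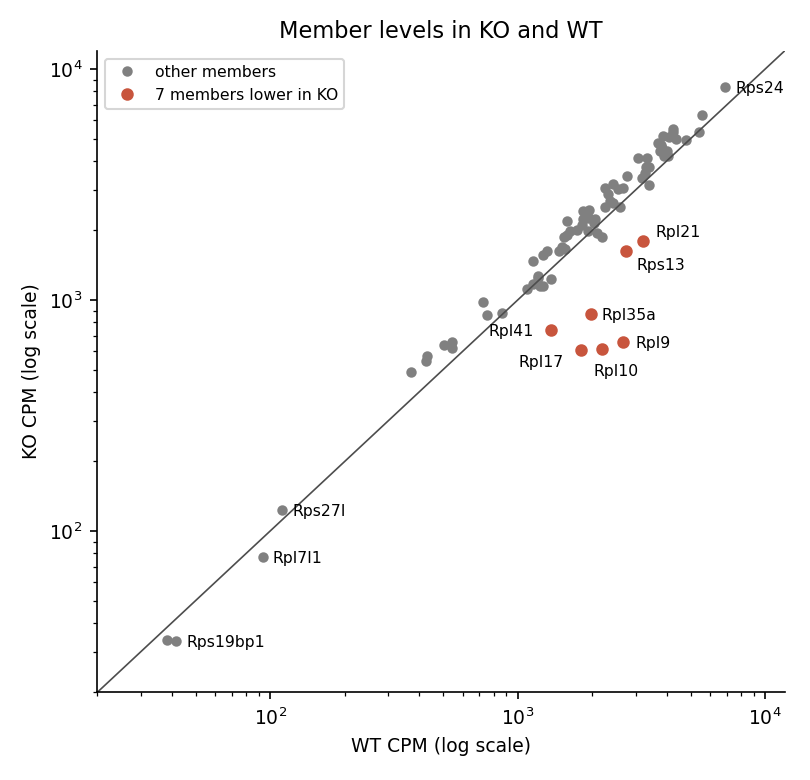
Level of each member with at least 100 UMIs in WT (x axis) and KO (y axis), in CPM of thinned UMIs on log scales, with the line of equal levels. The 7 members lower in KO (red) lie below the line, down to Rpl9 at 657 against 2668 CPM.

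Rows outside the rule that share sequence with 3 of these genes were higher in KO. Rpl9-ps6 had 5329 UMIs in WT and 84994 in KO, or 594 and 3281 CPM at full depth. Rpl9 and Rpl9-ps6 share 84.4% of the 60-base windows of the Rpl9 transcript. Their summed level was 3284 CPM in WT and 4029 CPM in KO of the thinned UMIs, a log2 ratio of 0.30, inside the quartiles of the members. Gm10076, annotated as a noncoding gene (chromosome 14, 105681828 to 105682211, plus strand), shares 30.7% of the windows of Rpl41 and had 13898 UMIs in WT and 79974 in KO. Rpl41 and Gm10076 together were at 2920 CPM in WT and 3827 CPM in KO, a ratio of 0.39. Rpl10-ps3 had 916 UMIs in WT and 4588 in KO, but Rpl10 and Rpl10-ps3 together were still lower in KO, at 795 against 2287 CPM (−1.52).

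The division between the paired rows differed between the libraries and varied little between groups of cells. Rpl9-ps6 took between 18.02% and 20.07% of the UMIs of its pair in 12 groups of WT cells by Tcrg-V and marker, and between 82.4% and 83.9% in 11 groups of KO cells. Gm10076 took 51.4% to 54.7% in WT and 79.7% to 81.7% in KO, and Rpl10-ps3 4.22% to 5.32% and 21.7% to 24.4%. Strain, sort gate, library and sequencing run cannot be told apart as the source of this difference, and how reads that match several rows were counted was not tested.

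**Figure D5:**
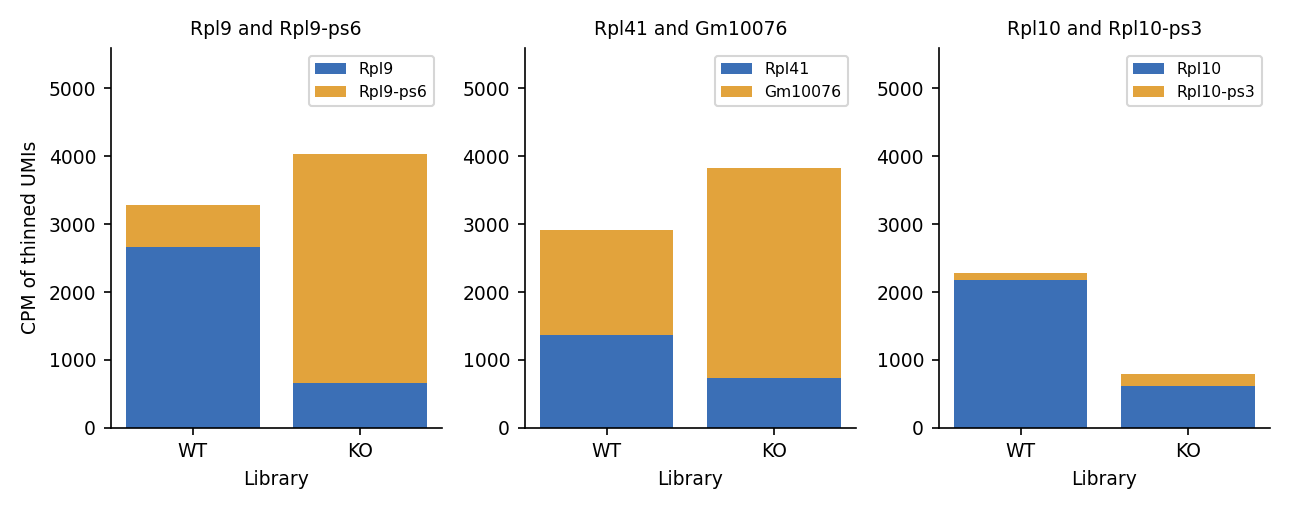
Level in CPM of thinned UMIs (y axis) of 3 members (blue) and of the row that shares their sequence (orange), stacked, by library (x axis). The sums for Rpl9 with Rpl9-ps6 and Rpl41 with Gm10076 are higher in KO (4029 against 3284 and 3827 against 2920 CPM), and the sum for Rpl10 is lower (795 against 2287 CPM).

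The 7 genes were also set beside the other members for shared sequence. They shared a median of 47.0% of their 60-base windows with another annotated gene (25.4% to 93.2%), beside 47.5% for the other 74 members compared (0% to 98.6%). Counting only genes that are rows of the files, the 7 shared a median of 13.1% (1 of the 7 at 0), beside 0% for the 74 (44 at 0). The median number of other genes sharing a window was 12 for the 7 and 7.5 for the 74. For Rpl17, Rpl21 and Rpl35a the rows of the files that share windows had little signal. BC004004, with 13.1% of the windows of Rpl21, had 387 UMIs in WT and 990 in KO, and Gm6133, with 5.92% of those of Rpl17, had 0 in both. Rps13 shared 80.8% of its windows with 6 annotated genes, 0 of which are rows of the files. Rps27, with 98.6% of its windows shared, was at −0.03 between KO and WT.

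The counting intervals understate the error of the group differences. With another random draw of the 2000 UMIs, 9 of the 10 main differences in share moved outside their intervals, although all 10 kept their sign. Differences as small as that with Ccr9 in WT were therefore not resolved.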

How the data were processed

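Single cells were sequenced as 2 droplet libraries. The deposited matrices hold UMI counts per gene and barcode made by the authors with Cell Ranger on mm10; their processing notes name version 7.0, the file headers 7.0.0, and the paper an earlier one. The labels name a 3′ kit and the paper a 5′ V(D)J kit. Values were raw counts, with no normalization and no doublet removal stated. The authors' cell limits were applied (more than 200 and fewer than 4000 genes, mitochondrial share under 10%), no doublet caller was run, and cells were thinned to 2000 UMIs (seed 1). Levels are CPM of thinned counts. Ratios carry exact conditional 95% intervals, with a floor of 3 UMIs. The interval of a difference combines those of the 2 shares. A gene was compared when read in at least 10% of cells of 1 group and with at least 30 UMIs, and called at a log2 ratio of 0.5. A member with at least 100 UMIs was named as an outlier when its ratio lay 0.5 or more from the member median with its whole interval on one side, and the 3 highest and 3 lowest members were named otherwise, except that some are not reported here. Alternatives are given in the closing section. Members and lists were chosen with earlier results of these data known. Gene positions and transcripts came from GENCODE vM21 (GRCm38), to which 32158 of 32285 identifiers matched, and promoters from RefSeq. Python 3.11.15, numpy 2.4.6, scipy 1.17.1, pandas 2.3.3 and matplotlib 3.10.9 were used, and the calculations were tested on simulated data.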

Additional observations from a re-analysis of the deposited data

Results flagged for a closer look

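Rows with -ps were outside the naming rule, and 3 of them held UMIs. Rpl9-ps6 had 84994 UMIs in KO and 5329 in WT, Rpl10-ps3 had 4588 and 916, and Rpl36a-ps1 had 8 and 1. The source of the difference between the libraries was not tested.

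The ribosomal protein share of KO minus that of WT had opposite signs in different groups of cells. It was −1.34 points among cells with Ly6c2 and −0.898 points among cells with Cd8b1, but 1.10 points with Ccr9 and 1.47 points with Tmem176b. The shares include the 7 members lower in KO, and the signs within groups without them were not computed. Rpl9, 1 of the 7, was at 720 CPM in KO and 3331 CPM in WT with Ly6c2, and at 719 and 3330 CPM with Cd8b1. The median log2 ratio over members was −0.01 with Ly6c2 and 0.02 with Cd8b1, beside 0.16 with Ccr9 and 0.17 with Tmem176b. The negative differences in share were thus not a shift of most members. Whether the groups of cells differ was not tested, since each library is 1 sample.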

How the results depend on the processing

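No paired analysis was possible because WT and KO are a single library each. Of the recomputed differences in share 38 stayed inside their counting intervals, 51 moved with the same sign and 1 turned. Values below are percentage points. With markers detected within 1000 other UMIs, Ccr9 in WT gave 0.092, Tcrg-V6 against Tcrg-V4 −4.16, Ly6c2 6.75 (WT) and 2.93 (KO), Cd8b1 5.36 and 2.95, and Tmem176b −2.81 and −2.33. With another random draw Tcrg-V6 gave −3.66, Ly6c2 6.50 and 2.86, Cd8b1 4.19 and 2.76, Ccr9 −0.072 and −0.971, and Tmem176b −3.14 and −2.64. Thinning to 3000 UMIs gave 1.504 for KO against WT, −4.32 for Tcrg-V6, 6.90 and 3.45 for Ly6c2, 2.63 for Cd8b1 (KO), −1.04 for Ccr9 (KO), and −4.27 and −2.90 for Tmem176b. No thinning gave 6.46 and 3.03 for Ly6c2, −0.0012 and −0.567 for Ccr9, and −2.59 and −2.38 for Tmem176b. Without cells above 2 times the median UMIs, KO against WT was 1.75, Tcrg-V6 −4.03, Ly6c2 6.68 and 2.91, Cd8b1 5.31 and 2.64, and Tmem176b −3.42 (WT). Without cells with B cell or myeloid markers, KO against WT was 1.62, Ly6c2 6.74 and Tmem176b −3.44 (both WT). Leaving out mitochondrial UMIs gave 6.41 and −3.36 for the same markers in WT. Alternatives chosen after seeing the data were to count the -ps rows (1.97 for KO against WT) and to leave out the 7 members lower in KO, which gave 2.59 for KO against WT, −3.54 for Tcrg-V6, 5.80 and 2.71 for Ly6c2, 4.51 and 2.45 for Cd8b1, and −2.998 and −2.503 for Tmem176b.

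Numbers of members called, higher and lower together, also moved, and so did the share of all genes called. At a log2 ratio of 0.25 they were 38 for KO against WT (40.9% of all genes), 56 for Tcrg-V6 (57.4%), 76 and 12 for Ly6c2 (52.4% and 26.8%), 59 and 12 for Cd8b1 (69.6% and 31.2%), 3 for Ccr9 in WT (51.2%), and 42 and 21 for Tmem176b (52.9% and 52.3%). Dividing by other UMIs gave 8 for Tcrg-V6 (30.5% of all genes) and, in WT, 54 for Ly6c2 (25.5%), 20 for Cd8b1 (45.9%) and 3 for Tmem176b (26.6%). With no minimum they were 4 for Tcrg-V6 (56.6%), 2 for Ly6c2 in KO (44.1%), 3 for Cd8b1 in KO (50.9%), 3 and 2 for Ccr9 (62.3% and 46.4%), and 2 and 3 for Tmem176b (36.2% and 54.4%). Without thinning they were 0 for Tcrg-V6 (25.3%), 0 for Ccr9 in WT (12.5%) and 1 each for Tmem176b (29.6% and 22.4%). The causes were not tested. In KO the order of Ly6c2 and Cd8b1 by size of difference changed with the setting.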
